A study of Mus musculus with 13 samples.

Results

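The genes described here build the replication licence of the cell together with its inhibitor geminin: Gmnn, Cdt1, Cdc6, Mcm2, Mcm3, Mcm4, Mcm5, Mcm6, Mcm7 and Mcm10, 10 of the 21900 protein-coding genes in the mm10 gene table. They were chosen by function, and every peak within a gene span or 10 kb on either side of it was taken. Chromatin immunoprecipitation followed by sequencing (ChIP-seq) had located STAG1, STAG2 and CTCF in NU1 cells, wild-type mouse urothelial cells that became immortal through serial passaging. For each antibody there were 2 libraries of proliferating cells and 2 of quiescent cells, labelled as biological replicates, which makes 12 libraries in 6 groups. Quiescence was brought about by growth to confluence and then medium with 1 uM rosiglitazone, an activator of PPAR gamma, and 0.5 uM erlotinib, an inhibitor of the EGF receptor kinase, so confluence, both drugs and the quiescent state cannot be told apart. All libraries come from this single line. Gene expression was not measured in these files, so neither the urothelial identity nor the arrest of the cells could be checked by marker genes.

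Licensing loads the replicative helicase onto DNA before S phase. The origin recognition complex recruits Cdc6 and Cdt1, which load the ring of Mcm2, Mcm3, Mcm4, Mcm5, Mcm6 and Mcm7, while geminin binds Cdt1 and blocks loading again in the same cycle; Mcm10 acts later, when the helicase is switched on. The genes are known targets of E2F factors and of the DREAM repressor, and the series asks how STAG2, one of the alternative subunits of the cohesin ring, works with DREAM in quiescence. CTCF binds DNA through zinc fingers and is known to stall cohesin.

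The 12 peak lists held between 34281 and 71757 peaks, fewest in STAG2 quiescent replicate 2 and most in CTCF quiescent replicate 2, and all 4 quiescent STAG libraries had shorter lists than the proliferating libraries of their antibody. A fold enrichment below is the authors' value for a peak over its background, which is comparable within a list and was not used to compare lists. Read totals are not in the lists, so the depth is unknown. Over the 10 genes 325 peaks merged into 52 sites, a site being the set of peaks that share at least 1 bp with each other in any library, out of 114651 sites in all. Of these, 12 lay within 1 kb of the start of a licensing gene, or of either end where the start was not annotated, and 40 elsewhere, some of them at starts of neighbouring genes. The start was annotated for 8 of the genes. For Gmnn and Mcm4 the tables used here give no strand, so both of their ends were examined and are called the lower and the upper end by coordinate.

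RefSeq promoter sequences (GRCm38.p6, 250 bases before to 50 after a start) were found for 8 of the 10 genes and are shown here for those with a match to an E2F-type motif, since E2F and DREAM binding links these genes. Gmnn and Mcm4 had no entry. The letters searched on both strands were TTTNGCGC and TTTCCCGC, and each match is in capitals, 5′ to 3′ along the gene. The first 3 lines give the 250 bases before the start of Mcm6 (chr1:128359706-128359955, minus strand), Mcm5 (chr8:75109259-75109508, plus strand) and Cdc6 (chr11:98907901-98908150, plus strand), and the last 3 give 30 bases just after the start of Mcm3 (chr1:20820266-20820295, minus strand), Mcm7 (chr5:138171849-138171878, minus strand) and Cdt1 (chr8:122568035-122568064, plus strand).
Mcm6: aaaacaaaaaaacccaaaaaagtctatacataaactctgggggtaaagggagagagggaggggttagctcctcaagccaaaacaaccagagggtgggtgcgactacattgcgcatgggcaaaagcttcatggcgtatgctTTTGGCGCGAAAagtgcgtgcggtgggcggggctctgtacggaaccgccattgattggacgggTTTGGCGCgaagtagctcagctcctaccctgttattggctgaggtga
Mcm5: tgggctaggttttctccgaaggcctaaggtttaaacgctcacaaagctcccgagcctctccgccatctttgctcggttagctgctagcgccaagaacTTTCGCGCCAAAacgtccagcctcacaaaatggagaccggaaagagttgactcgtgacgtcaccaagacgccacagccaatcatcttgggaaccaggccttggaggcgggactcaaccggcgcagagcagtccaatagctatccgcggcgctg
Cdc6: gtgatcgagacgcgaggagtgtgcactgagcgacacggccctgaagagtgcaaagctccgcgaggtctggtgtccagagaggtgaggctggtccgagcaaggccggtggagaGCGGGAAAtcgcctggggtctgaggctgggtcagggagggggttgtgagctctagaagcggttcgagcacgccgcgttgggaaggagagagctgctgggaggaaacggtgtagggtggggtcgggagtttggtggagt
Mcm3: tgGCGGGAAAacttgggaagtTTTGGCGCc
Mcm7: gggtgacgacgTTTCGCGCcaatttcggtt
Cdt1: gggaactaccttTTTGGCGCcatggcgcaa
At least 1 of the E2F-type motifs stood in a promoter of each of these 6 genes and in 2.39% of the 32851 promoters of the table. Here and below genes were counted by any of their promoters, while the shares were taken over promoters. The units therefore differ, since a gene such as Mcm7 has more than 1 promoter. In Mcm6 and Mcm5 matches on opposite strands overlapped, so that the capitals run on. Mcm7 had a further match, to TTTCCCGC on the other strand, at position -165 from its start, outside the bases shown. The promoters of Mcm2 and Mcm10 held neither. The CHR element, which binds the MuvB core of DREAM, was sought as TTTGAA and TTCGAA, and was found as TTTGAA at position -70 from the start of Mcm2 (17.9% of all promoters hold this motif) and as TTCGAA, which reads the same on both strands, in Mcm7 (1.56%). The CCAAT box was found in 6 of the 8 genes and in 37.4% of promoters. These matches describe letters and do not show that a factor was bound.

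**Figure D1:**
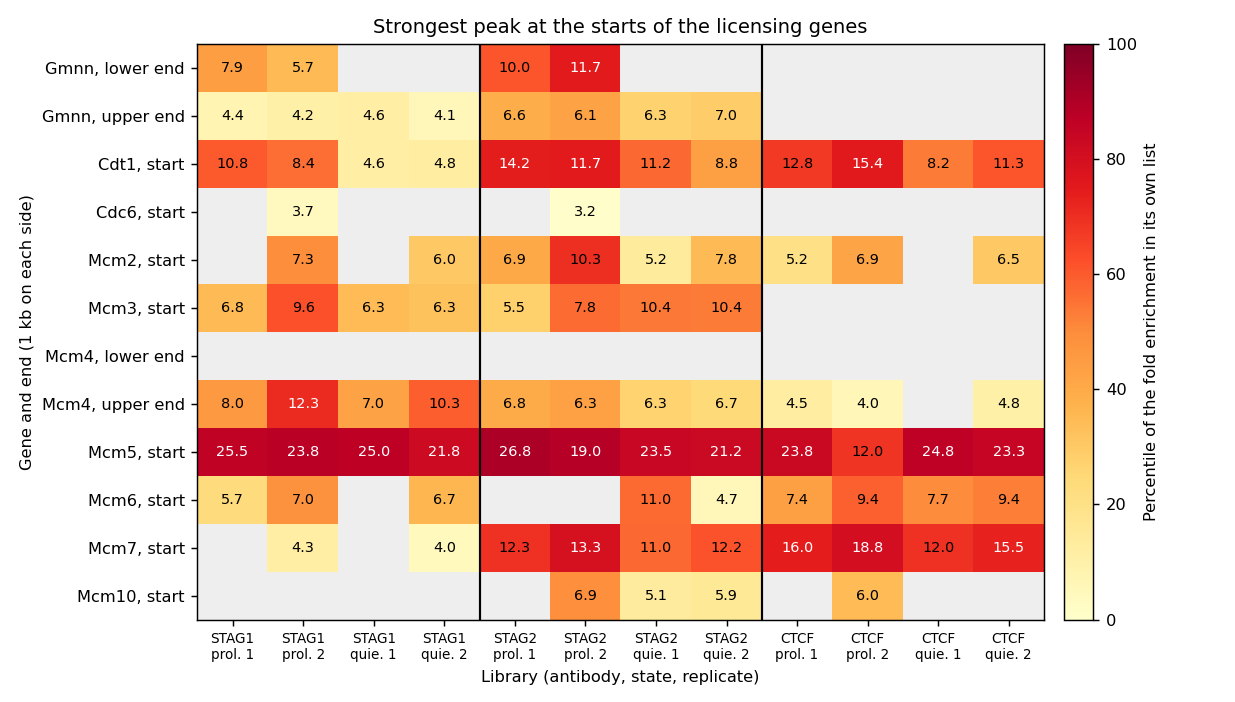
Rows are the starts (or ends) of the 10 genes and columns the 12 libraries (prol., proliferating; quie., quiescent). Numbers are the fold enrichment of the strongest peak within 1 kb, colour is the percentile of that fold in its own list, and grey means no peak. Mcm5 was called in every library, while the lower end of Gmnn was called in the 4 proliferating STAG libraries alone.

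With all peaks, STAG2 was called at the starts of most licensing genes in both states, but the other antibodies with a peak there and the strength of the peaks differed from gene to gene. In proliferating cells both STAG2 libraries called 7 of the 10 genes, and in quiescent cells 9 of the 10, against 55.0% of all protein-coding genes in each state. STAG1 was called at 6 and 5 of 10, against 48.8% and 47.1% of all genes, and CTCF at 6 and 4 of 10, against 49.0% and 44.9%. For STAG1 and CTCF these counts lie near the share of all genes, and the STAG2 count in proliferating cells is little further from it. Among the 8 genes with an annotated start STAG2 was at 5 and 7, against 55.0% and 55.2% of all genes with one. Among the 20000 top peaks of each library, STAG2 was at 4 and 5 of the 10 genes, against 31.0% and 37.5% of all genes, so that it was then at no more than 5 starts in either state. Peaks at the starts ranged from the weakest percent of a list at Cdc6 to percentile 90.8 at Mcm5, as the plot of start peaks shows. No test was made over the 10 genes, because they were put together with results of these data known.

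At Gmnn, the geminin gene (chromosome 13, 24751845 to 24761937), STAG1 and STAG2 were called at both ends in proliferating cells and the upper end alone in quiescent cells. At the lower end lay a site from 24750743 to 24751801, which stopped 44 bp outside the annotated gene. Its STAG2 peaks had fold enrichments of 10.0 and 11.7 in proliferating replicates 1 and 2, at percentiles 61.1 and 74.8 of their lists. The STAG1 peaks there had 7.86 and 5.67. None of the 4 quiescent STAG libraries and none of the 4 CTCF libraries had a peak at this end. This made it the only site of the 52 that was called by all 4 proliferating STAG libraries and no other library, a pattern of 0.153% of all sites. Of the 175 sites with these 12 calls, 8 lay at a gene start or end. By the mean STAG2 percentile in proliferating cells the Gmnn site ranked 6 among the 175. STAG2 was likewise called here in proliferating cells alone among peaks with a -log10 q of at least 5 and among the top 20000 peaks of each library, but STAG1 no longer met this among the top 20000.

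The upper end of Gmnn was called in all 8 STAG libraries and in no CTCF library. This site ran from 24761011 to 24762268, across the end of the gene. STAG2 gave folds of 6.58 and 6.13 in proliferating and 6.33 and 7.00 in quiescent cells. STAG1 gave 4.38 and 4.22, then 4.64 and 4.15. The peaks were low in their lists, at percentiles 27.1 to 42.7 for STAG2 and 5.32 to 11.6 for STAG1. Which of the ends is the promoter is not settled by the tables used here. A STAG1 peak 8513 bp below the gene, in proliferating replicate 2 alone with a fold of 3.49, was the other site of the locus.

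**Figure D2:**
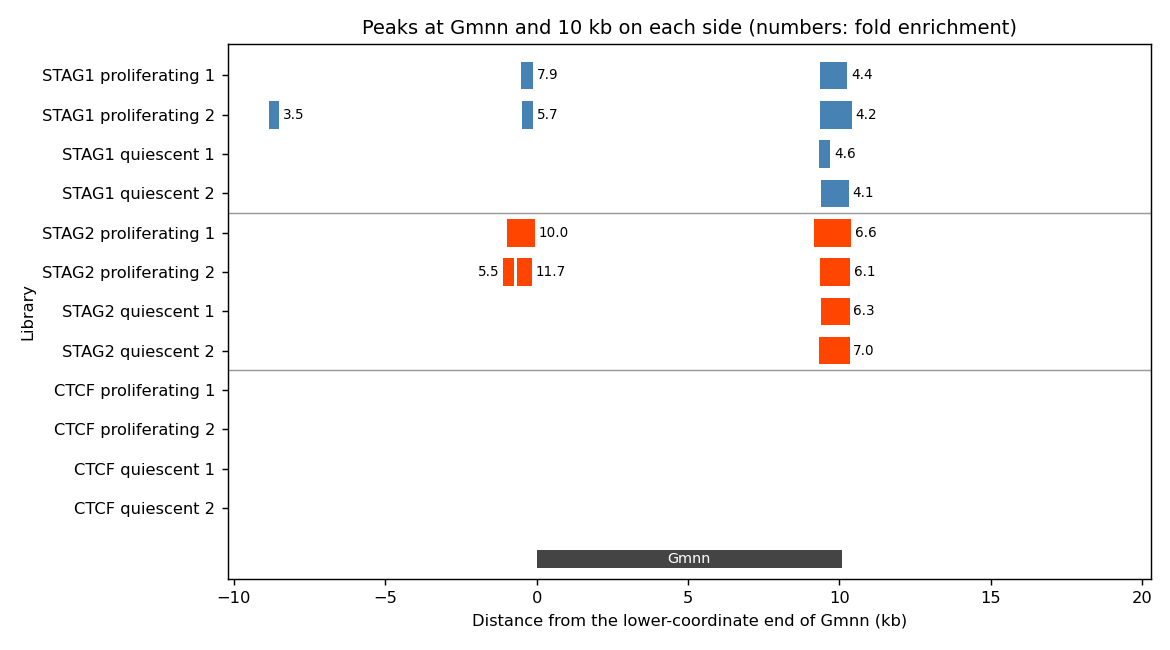
Bars are the peaks of each library along Gmnn and 10 kb on each side, placed by distance in kb from the lower-coordinate end of the gene, with the fold enrichment beside each; the dark bar is the gene. The peaks near 0 kb are in the 4 proliferating STAG libraries, those near 10 kb are in all 8 STAG libraries, and the CTCF rows are empty.

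The loading factors Cdt1 and Cdc6 differed. At the start of Cdt1 (chromosome 8, plus strand, start 122568015), cohesin and CTCF formed neighbouring sites. The site over the start, from 122566874 to 122568567, was called in all 12 libraries. STAG2 had folds of 14.2 and 11.7 there in proliferating and 11.2 and 8.80 in quiescent cells. STAG1 had 10.8 and 8.40, then 4.60 and 4.80, and CTCF lay between 4.40 and 6.71, at percentiles 6.12 to 38.3 of its lists. A second site had its strongest summit 970 bp downstream of the start. There, from 122568669 to 122569805, CTCF was called in all 4 libraries with folds from 8.24 to 15.4, at percentiles 53.5 to 75.3, and STAG1 in both proliferating libraries, with 4.50 and 3.63, and in no quiescent one. STAG2 was called at this second site only in quiescent replicate 1, with 5.44.

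Cdc6 (chromosome 11, plus strand) had its start called in the fewest libraries, 2, and had the most sites, 15, several of them called in 1 library only. Mcm2 had more peaks, 67 against 61. At the start, 98908151, there was a weak peak of STAG1, fold 3.67, and of STAG2, fold 3.17, both in proliferating replicate 2 alone, and no CTCF. The strong sites stood inside and past the gene. A site from 98921724 to 98923135, near the 3′ end and 14354 bp from the start by its strongest summit, was called in all 12 libraries. Among the 52 sites it held the strongest STAG1 peak of each of the 4 STAG1 libraries, but the strongest STAG2 peak in proliferating replicate 1 alone. Its STAG1 folds were 45.7 and 51.3 in proliferating and 45.3 and 53.9 in quiescent cells, its STAG2 folds 37.1 and 23.3, then 34.5 and 22.8, and its CTCF folds ran from 25.7 to 37.9. Other sites called in all 12 libraries stood 1720 bp into the gene, from 98909437 to 98910414, with folds from 6.84 to 26.7, and 25143 bp from the start within the neighbouring gene Rara, from 98931863 to 98933671, with folds from 14.0 to 49.3.

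Of the helicase subunits, Mcm5, which with Mcm2 forms the gate of the ring, had the strongest start peak of the 10 genes in 11 of the 12 libraries. Its site (chromosome 8, plus strand, 75108409 to 75110383) was called in all 12 libraries, and its highest summit lay at -786 bp from the start, 75109509. STAG2 folds were 26.8 and 19.0 in proliferating and 23.5 and 21.2 in quiescent cells, at percentiles 83.2 to 90.8. STAG1 folds were 25.5 and 23.8, then 25.0 and 21.8, and CTCF folds were 23.8 and 12.0, then 24.8 and 23.3. In 11 of the 12 libraries this peak stood above the 80th percentile of its list, and CTCF proliferating replicate 2 was lowest, at percentile 68.5.

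Mcm7 and Mcm3 were unlike each other in CTCF. Mcm7 (chromosome 5, minus strand), whose start region from 138170857 to 138172632 also holds the start of Ap4m1, an adaptor complex subunit gene, had STAG2 and CTCF in all 4 libraries of each and STAG1 in 1 library of each state. STAG2 folds were 12.3 and 13.3 in proliferating and 11.0 and 12.2 in quiescent cells, and CTCF folds 16.0 and 18.8, then 12.0 and 15.5. The STAG1 peaks, both in replicate 2, had folds of 4.33 and 4.00. Mcm3 (chromosome 1, minus strand, site from 20819659 to 20820474) had STAG1 and STAG2 in all 8 libraries and CTCF in none. Its STAG2 folds were 5.50 and 7.80 in proliferating and 10.4 and 10.4 in quiescent cells, and its STAG1 folds 6.80 and 9.60, then 6.34 and 6.34. Sites of all 8 STAG libraries without CTCF made up 0.632% of all sites, and the 2 among the 52 were this one and the upper end of Gmnn.

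Mcm6 was the start at which STAG2 was called in quiescent cells alone. Its site (chromosome 1, minus strand, 128359126 to 128359818) had STAG2 folds of 11.0 and 4.75 in quiescent replicates 1 and 2 and no STAG2 peak in either proliferating library. STAG1 was called there in 3 libraries, with 5.67 and 7.00 in proliferating cells and 6.67 in quiescent replicate 2. CTCF was called in all 4, with folds from 7.38 to 9.40. The second quiescent STAG2 peak was at percentile 5.44 of its list, and with 20000 peaks in every library the STAG2 gain was no longer called.

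The starts of Mcm2 and Mcm10 and the upper end of Mcm4 were called in 9, 4 and 11 libraries. Mcm2 (chromosome 6, minus strand, site from 88898270 to 88899011) had STAG2 in all 4 libraries, with folds of 6.90 and 10.3 in proliferating and 5.17 and 7.76 in quiescent cells, STAG1 in replicate 2 of each state and CTCF in 3 libraries. Mcm4 (chromosome 16) had no peak at its lower end. The upper end, whose site from 15636905 to 15638263 also covers an end of Prkdc, the gene of the DNA-dependent protein kinase, was called in all 8 STAG libraries, with STAG1 folds of 8.0 and 12.3, then 7.00 and 10.3, and STAG2 folds from 6.25 to 6.80. CTCF was called there in 3 libraries at folds of at most 4.84. Mcm10 (chromosome 2, minus strand, site from 5012250 to 5012897), the activation factor, had no STAG1, STAG2 in proliferating replicate 2 and both quiescent libraries with folds of 6.86, 5.11 and 5.94, and CTCF in proliferating replicate 2 alone.

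**Figure D3:**
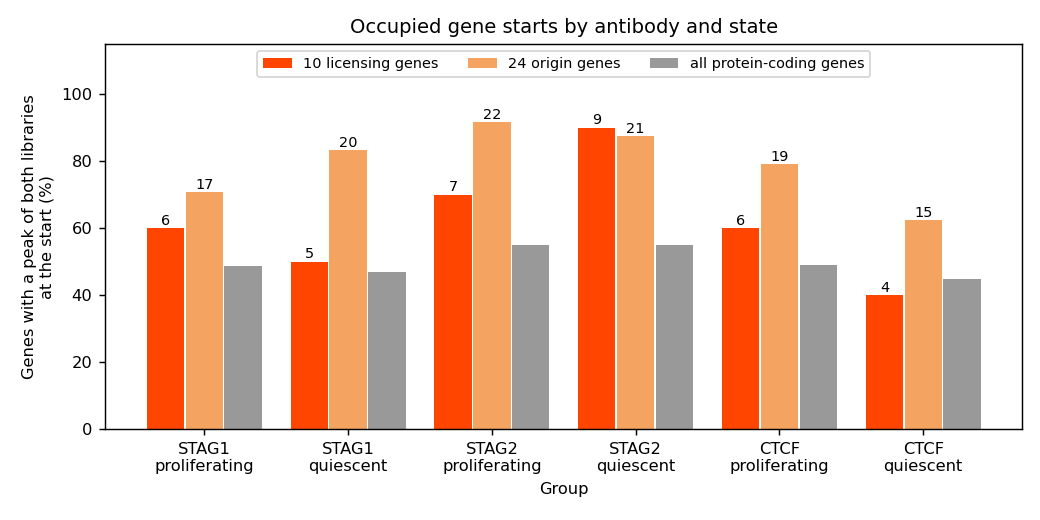
Bars give the percent of genes with a peak of both libraries of a group within 1 kb of the start, for the 10 licensing genes, 24 genes of origin recognition and firing, and all 21900 protein-coding genes; the numbers over the bars are counts of genes. The licensing genes stand at 70% and 90% for STAG2, against 55.0% of all genes in each state, and near all genes for STAG1 and CTCF. The origin genes stand at 91.7% and 87.5% for STAG2, and above the licensing genes for STAG1 and CTCF.

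The neighbouring steps of origin recognition and firing were looked at in the same way. A list of 24 genes of these steps (Orc1 to Orc6, Cdc45, the GINS subunits, Cdc7 with Dbf4, and others) had STAG2 at 22 of 24 starts in proliferating and 21 of 24 in quiescent cells. STAG1 was at 17 and 20 of 24, and CTCF at 19 and 15 of 24. As shares these were 91.7% and 87.5% for STAG2, 70.8% and 83.3% for STAG1, and 79.2% and 62.5% for CTCF. Of all protein-coding genes, STAG2 was at 55.0% in each state, STAG1 at 48.8% and 47.1%, and CTCF at 49.0% and 44.9%. The licensing genes exceeded the origin genes only for STAG2 in quiescent cells, at 90%, so frequent STAG2 was not particular to them. These shares were not tested. Gins2, a GINS subunit gene, was the single gene of the list whose STAG2 call differed between the states: it was called in both proliferating libraries and in quiescent replicate 1, but not in replicate 2, and its highest percentile was 18.7. Orc1, the large subunit of the origin recognition complex, and Gmnc, a relative of geminin, named after their values were seen, had no state in which both STAG2 libraries called their start; each had a STAG2 peak in 1 quiescent library, replicate 1 for Orc1 and replicate 2 for Gmnc. For STAG1 the counts at the licensing genes differed more between the replicates of a state than between the states. STAG1 proliferating replicate 1 called 6 of the 10 licensing genes and replicate 2 called 9, and quiescent replicates 1 and 2 called 5 and 8, so the quiescent count was 8 without replicate 1. For STAG2 the counts by library were 7 and 9, then 9 and 9, and for CTCF 6 and 7, then 4 and 6. The shares of all genes were not computed by single library, so these counts have no background. The STAG1 lists held 38857 and 50468 peaks in proliferating and 35594 and 36680 in quiescent replicates 1 and 2.

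Away from their own starts the licensing genes had further sites of all 3 proteins. Of the 52 sites, 13 were called in all 12 libraries, against 15.9% of all sites. At the genes' own starts or ends these were 2 of 12, at Cdt1 and Mcm5, against 43.8% of all sites at gene starts. Elsewhere they were 11 of 40, some at starts of neighbouring genes, against 11.1% of all sites away from gene starts. Besides those at Cdc6, they stood 3854 bp past the far end of Mcm5 (75132293 to 75133011), 1374 bp past the far end of Mcm10 (4988755 to 4989350), within Mcm2 (88893273 to 88894045) and upstream of it at the start of Tpra1 and inside that gene, 8923 bp upstream of Mcm6, 1372 bp past Cdt1 across the start of Aprt, and past Mcm7 at the start of Zfp113. The site past Mcm5 had STAG1 folds from 30.4 to 51.9, STAG2 folds from 24.4 to 33.4 and CTCF folds from 6.49 to 26.9. At the Tpra1 start (88901164 to 88903100) the STAG2 peaks stood at percentiles 86.4 to 93.9 of their lists, the CTCF peaks at 75.0 to 86.8 and the STAG1 peaks at 22.7 to 51.2.

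CTCF without cohesin was found at 6 of the 52 sites in all 4 CTCF libraries, against 6.12% of all sites. They lay upstream of Cdt1, where 2 of them stood, within Cdc6, Mcm2 and Mcm10, and past Mcm2, and the one within Mcm10 (4998756 to 4999407) was strongest, with folds from 12.0 to 25.3. A further 14 sites, 7 of them around Cdc6, were called in 1 library only, against 32.9% of all sites. One site within Mcm7, from 138165208 to 138165884, covers the microRNA genes Mir25, Mir93 and Mir106b, and was called in proliferating replicate 2 of each of the 3 antibodies and in no other library.

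**Figure D4:**
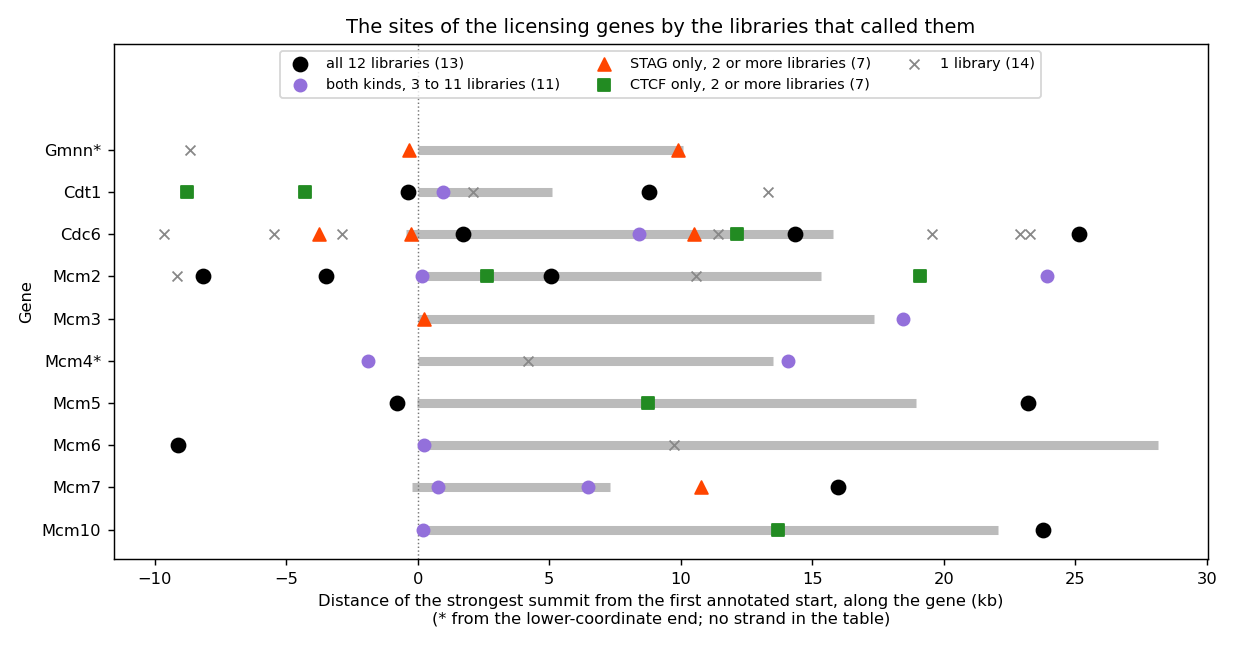
Each mark is 1 of the 52 sites, placed by the distance in kb of its strongest summit from the first annotated start along the gene, and grey bars are the genes. Shape and colour give which libraries called the site, and the legend counts the sites of each kind. Of the 13 sites of all 12 libraries, 11 lie away from the genes' own starts or ends, as do 40 of the 52 sites. The 7 CTCF-only sites shown do so without exception.

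Of the 25 sites with a STAG protein in both libraries of a group, 21 had a CTCF peak in some library, against 83.2% of all such sites. Of the 11 at the licensing genes' own starts or ends, 8 had it, against 91.2% of all such sites at gene starts. The exceptions were both ends of Gmnn and the start of Mcm3. Of the other 14, of which some lie at starts of neighbouring genes, 13 had it, against 79.5% away from gene starts. The exception was the site at the start of Cops6 near Mcm7. With CTCF required in all 4 libraries, 5 of the 11 had it and 11 of the other 14. The share over all sites was not computed for this rule. All these counts at the licensing genes rest on few sites and were not tested.

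Few sites were called by both libraries of 1 state and by neither of the other. A site was counted as lost when both proliferating libraries and no quiescent library of an antibody called it, and as gained in the reverse case. STAG2 lost 1 of the 52 sites, the lower end of Gmnn (3.06% of all sites), and gained 1, the start of Mcm6 (0.489%). STAG1 lost 2, the lower end of Gmnn and the second site at the start of Cdt1 (2.13%), and gained none (0.311%). The Cdt1 loss rested on weak peaks, at percentiles 8.91 and 3.07 of proliferating lists 1 and 2. With a -log10 q of at least 5 it was not called, and STAG1 lost a site near Mcm3 instead. Among the top 20000 peaks STAG1 lost the site over the Cdt1 start instead. CTCF lost and gained none (1.73% and 3.00%). With all peaks, every lost or gained site was among the 12 at the genes' own starts or ends. STAG1 lost 2 of these 12, against 1.91% of all sites at gene starts. STAG2 lost 1 and gained 1 of the 12, against 1.41% and 1.05%. Of the 40 sites elsewhere 0 were lost or gained. These counts rest on 1 or 2 sites each and were not tested against the shares. With 2 libraries against 2 no site can reach a two-sided p below 0.333 within 1 antibody, so the calls of all 3 antibodies were combined per site in an exact permutation test of the state within each antibody, adjusted by Benjamini-Hochberg over all sites. No site among the 52 passed (0.00% of all sites did). With adjustment over all sites the test could hardly pass any, so this outcome decides nothing about the sites. No member site had an unadjusted p under 0.05 in this exact permutation test. The smallest was 0.0556 at the lower end of Gmnn, called in 4 of 6 proliferating and 0 of 6 quiescent libraries. That site had no CTCF call, and without one no site can have a p below 0.0556 in this test. It could therefore not have come under 0.05, and the test cannot decide about it. The same holds for all 15 of the 52 sites without a CTCF call and for the 13 without a STAG call. Over all sites 97 had an unadjusted p under 0.05, 0.0846%. The design itself allows no unadjusted p below 0.00926. Because these counts need agreement of 2 libraries, they moved when 1 was left out: STAG1 losses were 9 and 4 without proliferating replicate 1 or 2 and 4 without quiescent replicate 2. STAG2 losses were 5 and 4 without proliferating replicate 1 or 2, and STAG2 gains were 3 without proliferating replicate 2 or quiescent replicate 2. CTCF losses were 4 and 2 without proliferating replicate 1 or 2 and 5 without quiescent replicate 2, and CTCF gains were 2 without quiescent replicate 1. With 1 library left out, a state is judged by its other library alone, so the rule is looser at any site. The shares over all sites were not computed for these looser rules, so these counts have no background beside them.

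The pattern of Gmnn over the 12 libraries, with STAG1 and STAG2 always and CTCF never called when either end counts, was shared by 190 other protein-coding genes, 0.868% of all, among them Mcm3. Likeness here means the same call in each of 12 libraries. Among those with the highest mean STAG2 percentile in proliferating cells were Arrdc4 at 96.8, Marcks at 88.1, Sdcbp at 83.2 and Gm32856 at 79.3. Cdt1 and Mcm5 shared the call in all 12 libraries with 7811 genes, 35.7%.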

How the data were processed

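Peaks of 12 ChIP-seq libraries were used; a further sample titled input was not analysed here. Per the submitters' processing notes, the tools were bcl2fastq, BWA, Picard, MACS2 and HOMER on mm10, and the versions are not given in the sources used here. For each library the authors deposited 1 peak list, each peak with a fold enrichment (a ratio over background), a -log10 p, a -log10 q, a score of 10 times the -log10 q and a summit offset. The peak names mark library and input as normalised without saying how, and whether the background was input or IgG was not settled.

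Peaks sharing at least 1 bp were merged into sites over all libraries. Gene spans came from the RefSeq table of GRCm38.p6 (the mm10 build), and starts from the RefSeq promoter table, which covers 17492 of 21900 protein-coding genes; for the rest, Gmnn and Mcm4 included, both gene ends served. Exons and introns are not in these tables. A start was occupied when a peak of both libraries overlapped the 1 kb on either side. State was tested per site by an exact two-sided permutation within antibody (Python 3.11.15, numpy 2.4.6), tested on simulated data, with Benjamini-Hochberg adjustment over 114651 sites. Alternatives were a -log10 q of at least 5, 20000 peaks per library, other windows, flanks and matching rules, and each library left out.

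The members and lists were chosen with earlier results of these data known. All 10 members are described; of the origin genes those whose STAG2 start call differed between states were to be named, and for likeness to Gmnn the 5 genes highest in STAG2 percentile with the same 12 calls, of which 1 is not reported here.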

Additional observations from a re-analysis of the deposited data

How the results depend on the processing

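Of 121 alternative values for 15 counts, 90 lay within 1.5 times the reported count or equalled it at 0. The 90 include every alternative of the permutation test, which could hardly give anything but 0. With 20000 peaks in every library the occupied starts fell to 3 and 3 of 10 for STAG1 in proliferating and quiescent cells, 4 and 5 for STAG2, and 3 and 2 for CTCF. The shares of all protein-coding genes were then 24.9% and 26.3%, 31.0% and 37.5%, and 22.8% and 19.7%. STAG1 then lost 1 site and gained 1, STAG2 gained 0 and CTCF lost 1. With a -log10 q of at least 5, STAG2 gained 3 sites. When summits within 250 bp made a site, STAG2 lost 2 and CTCF gained 1. With a flank of 20 kb, STAG1 lost 4, STAG2 lost 2, CTCF lost 1 and CTCF gained 1. The shares of all sites lost or gained were not computed for the shorter lists or the 250 bp rule. The wider flank takes in more sites, whose number is not given. With CTCF in all 4 libraries, 5 STAG sites at starts had it. With the 8 genes of annotated start alone, chosen after seeing the data, STAG1 in quiescent cells occupied 3 starts.

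Leaving out each library in turn gave between 6 and 9 occupied starts for STAG1 in proliferating and 5 and 8 in quiescent cells, 7 and 9, then 9 and 9 for STAG2, and 6 and 7, then 4 and 6 for CTCF. Lost sites ranged from 2 to 9 for STAG1, 1 to 5 for STAG2 and 0 to 5 for CTCF, and gained ones from 0 to 0, 1 to 3 and 0 to 2. No shares over all genes or all sites were computed with a library left out. The exact permutation test passed 0 sites, also with the replicate block (smallest possible p 0.0312), but with adjustment over 114651 sites it could hardly pass any, so this says nothing about stability. The labels give no shared source for equal replicate numbers, and differences between replicates did not move together between states (r = -0.0121 for STAG1, 0.0143 for STAG2 and -0.0423 for CTCF, across sites). List length, for which read depth is not known, limits all counts of weak peaks.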
